A study of Mus musculus with 6 samples.

Results

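The genes described here are 8 adipogenic regulators and adipocyte genes, chosen by symbol from the 23284 genes listed for each sample. They comprise the transcription factors *Pparg*, *Cebpa*, *Cebpb* and *Cebpd*, and the genes *Fabp4*, *Adipoq*, *Plin2* and *Cd36*, which encode proteins of fatty acid handling and an adipocyte hormone. Gene expression was measured by RNA-seq in ECFP+ osteoblasts (OBs) sorted from the ectopic bone that BMP-2 implants formed in *Col2.3*-ECFP mice, with 3 samples of day 10 and 3 samples of day 14 after implantation. In these male mice, aged 12 to 16 weeks, a fragment of the type I collagen promoter drives cyan fluorescence, which marks OBs, and each collagen sponge carried 2.5 μg of recombinant human BMP-2 under the skin of the back. All groups carried the reporter and the BMP-2, and no sample without BMP-2 was analysed here. The bone was digested with trypsin and then with collagenase II, which was used 1 time for day 10 samples and 2 times for day 14 samples. The day and the number of digestions therefore cannot be told apart. The sample titles and source names place all later samples on day 14, which was used here, while the free-text descriptions give day 14, 15 and 16 for replicates 1, 2 and 3. The number of mice behind a sample is not given in the sources used here, and p-values measure the spread between these samples.

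OBs and adipocytes arise from common mesenchymal progenitors. In the textbook sequence of fat cell formation, C/EBPβ (*Cebpb*) and C/EBPδ (*Cebpd*) act early and induce PPARγ (*Pparg*) and C/EBPα (*Cebpa*), which then maintain each other and switch on the genes of the mature adipocyte. *Fabp4* encodes a fatty acid-binding protein, *Plin2* a coat protein of lipid droplets, *Cd36* a fatty acid translocase and scavenger receptor, and *Adipoq* the hormone adiponectin. Several of these genes are not restricted to fat: C/EBPβ and C/EBPδ also respond to inflammatory cytokines, and *Cd36* and *Fabp4* are used by macrophages and capillary endothelium.

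Values are FPKM as deposited, that is, fragments of a gene divided by its exon length and by the mapped fragments of the sample, so that levels can be compared between genes. The number of mapped reads, estimated from the steps between low FPKM values, was between 4531927 and 7753522 per sample, and between 16646 and 19698 genes were above 0. The OB label was checked against 7 OB markers, which were above 0 in all samples, with a summed level of 28368 to 54192 FPKM on day 10 and 15669 to 38269 FPKM on day 14. *Col1a1* and *Ibsp* made up most of this sum. All of these markers but *Bglap2* were lower in day 14 replicates 1 and 3 than in every sample of day 10. *Bglap2* was at 136 and 26.9 FPKM in these replicates, against 317, 863 and 86.4 FPKM on day 10. *Col1a1* was at 15730 and 14151 FPKM there, against 17339 FPKM in day 10 replicate 3. *Dlx5* was at 0.979 and 1.01 FPKM in day 14 replicates 1 and 3, and *Alpl* at 273 and 186 FPKM. In day 14 replicate 2, *Dlx5* and *Alpl* were at 9.84 and 1300 FPKM, against 7.56 to 9.88 FPKM and 809 to 1129 FPKM on day 10. *Sp7* differed, at 73.7, 51.1 and 40.1 FPKM on day 10 against 9.79, 27.9 and 4.09 FPKM on day 14. For this marker, replicate 2 was thus also below all samples of day 10. The median log2 fold change of the 7 markers was −1.69, beside −0.04 over all genes tested. None had an adjusted p under 0.05 from limma, against 0.0154% of all genes tested. An unadjusted p under 0.05 from limma with a lower level on day 14 was found for 2 of them, against 4.4% of all genes tested. The part of the OB markers in the differences between the days was not tested. *Ptprc*, which encodes the CD45 used to gate out hematopoietic cells, was listed at 0.134 to 2.99 FPKM. The samples of day 14 thus did not lie together, and replicate 2 stood apart from the other two. Its summed level of 10 chondrocyte markers was 2527 FPKM, against 282 and 204 FPKM in replicates 1 and 3 of day 14 and 855 to 1811 FPKM on day 10. *Comp* (1383 FPKM) and *Col2a1* (688 FPKM) made up most of the sum in replicate 2. *Col9a1*, *Col9a2*, *Col11a1* and *Col11a2* were highest in day 10 replicate 1, and the other markers in day 14 replicate 2. Member values that turn direction without this sample are given with and without it. Summed levels of 8 skeletal muscle markers were 2.63 to 9.70 FPKM on day 10 and 1.42 to 4.04 FPKM on day 14, with *Ckm* above 0 in day 10 replicate 1 only. Those of 8 platelet and erythroid markers were 38.4 to 114 FPKM and 29.1 to 111 FPKM.

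The members spanned more than 3 orders of magnitude, with *Cebpb* at the top and *Adipoq* at the bottom. *Cebpb* ranked between 210 and 330 among all genes listed in each sample, and *Cebpd* between 804 and 1247. *Plin2* ranked between 1554 and 2448 and *Fabp4* between 1997 and 4935. *Cebpa*, *Pparg* and *Cd36* followed at about 1 to 4 FPKM in most samples, and their order among themselves changed from sample to sample. Thus the factors that act early in adipogenesis were high in these OBs, whereas the late-acting factors were low and the hormone of the mature adipocyte was at the level of single reads.

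**Figure D1:**
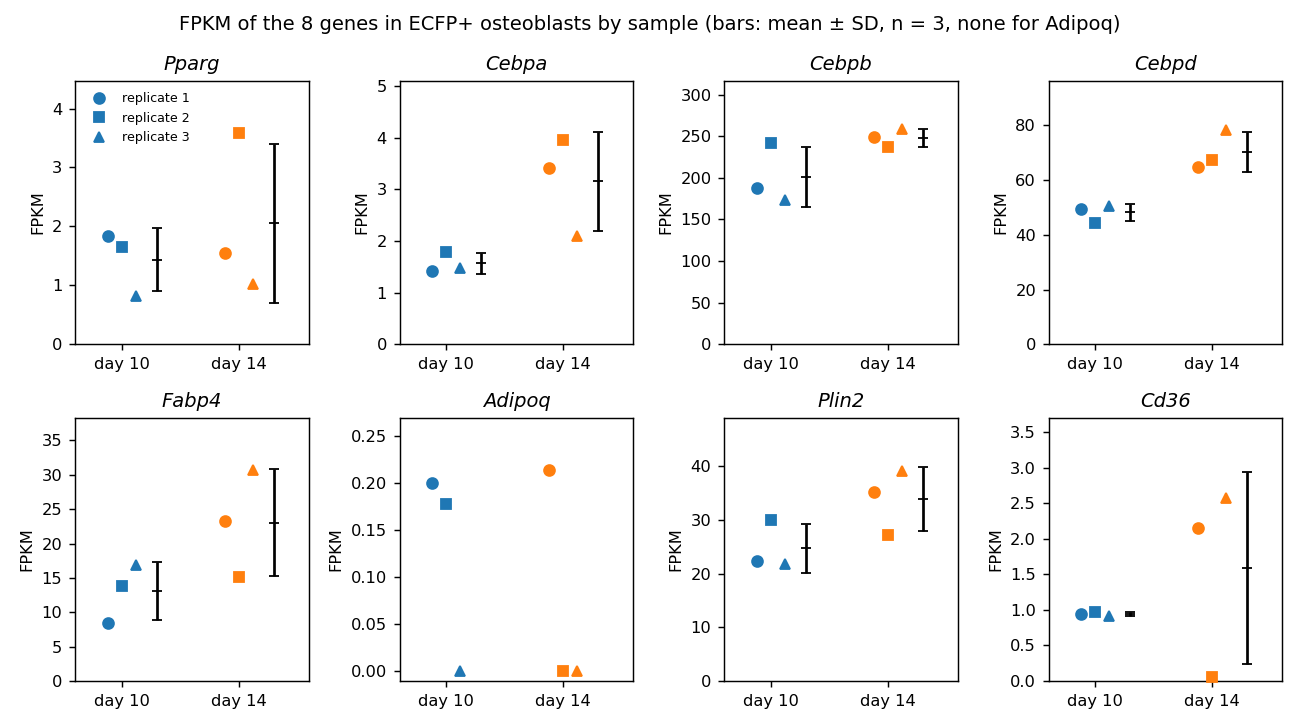
FPKM of the 8 genes in each sample (vertical axes linear, 1 panel per gene; blue, day 10; orange, day 14; circle, square and triangle, replicates 1, 2 and 3; black bars, mean ± SD of 3 samples, not drawn for *Adipoq*). All day 14 points lie above all day 10 points for *Cebpa* and *Cebpd*, and the square of day 14 lies above the other orange points for *Pparg* and below them for *Fabp4*, *Plin2* and *Cd36*.

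To find out whether the genes differed between the days, a model was fitted across the 19526 genes with a mean above 0.1 FPKM, with limma on log2(FPKM + 0.1). Fold changes are therefore those of FPKM + 0.1. Of the 8 genes, 7 passed this filter, and *Adipoq* did not. None of the 7 had an adjusted p under 0.05 from limma, where 0.0154% of all genes tested had one. Limma's unadjusted p was under 0.05 and the level higher on day 14 in 4 of the 7, namely *Cebpa*, *Cebpd*, *Fabp4* and *Plin2*, where 5.6% of all genes tested met this rule, and in no member was it under 0.05 with a lower level, against 4.4% of all genes tested. The count of 4 was 1 without day 10 replicate 1 or without day 14 replicate 1. In these settings 3% and 5.44% of all genes tested had an unadjusted p under 0.05 from limma and a higher level. The count was 2 without day 10 replicate 3, without day 14 replicate 3 or without the mean-variance trend, where these shares were 5.94%, 4.02% and 3.7%. It was 3 with a filter above 1 FPKM, scaling to the same sum or a replicate block, where they were 9.11%, 4.4% and 6.15%. The log2 fold change was positive in 6 of the 7 members and in 46.5% of all genes tested. None of the 7 differed by over 2-fold, where 5.25% of all genes tested were over 2-fold higher and 8.39% over 2-fold lower on day 14. Over 2-fold higher were 2 members without day 14 replicate 2 (*Fabp4* and *Cd36*), where 9.71% of all genes tested were. Only 1 member was over 2-fold higher without day 10 replicate 2 (*Cebpa*), day 10 replicate 3 (*Fabp4*) or day 14 replicate 3 (*Cebpa*). In these settings 6.68%, 7.38% and 6.58% of all genes tested were. The median log2 fold change of the 7 genes was 0.45, beside −0.04 over all genes tested. All day 14 samples were above all day 10 samples in 2 of the 8 genes, against 7.59% of all genes tested, and in none were they all below, against 6.67%. Without day 14 replicate 2 the first of these counts was 6 of 8, where 15.3% of all genes tested were separated in that direction. With any other single sample left out it was 2 to 4, where 9.52% to 13.2% of all genes tested were.

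**Figure D2:**
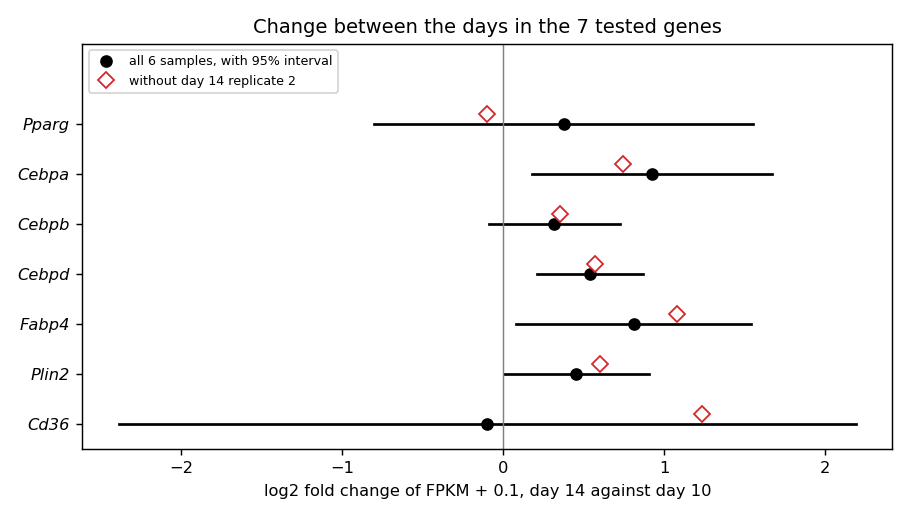
Log2 fold change of FPKM + 0.1, day 14 over day 10, for the 7 tested genes (horizontal axis; filled points with 95% intervals from limma, all 6 samples; open diamonds, the same without day 14 replicate 2). *Cebpd* has the narrowest interval, from 0.21 to 0.87, and *Cd36* the widest, from −2.38 to 2.19, and the diamonds of *Pparg* and *Cd36* lie on the other side of 0.

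Of the early regulators, *Cebpb* lies on chromosome 2 from 167688915 to 167690418 in the GENCODE vM21 annotation of mm10, on the plus strand. Because *Cebpb* was the highest of the members in every sample, the 250 bases before its annotated start are shown, from RefSeq (GRCm38.p6, plus strand, chr2:167688665-167688914). Capitals mark TGACG or its reverse complement CGTCA, the half-site of the cAMP response element, which occurs 3 times without overlap.

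Cebpb: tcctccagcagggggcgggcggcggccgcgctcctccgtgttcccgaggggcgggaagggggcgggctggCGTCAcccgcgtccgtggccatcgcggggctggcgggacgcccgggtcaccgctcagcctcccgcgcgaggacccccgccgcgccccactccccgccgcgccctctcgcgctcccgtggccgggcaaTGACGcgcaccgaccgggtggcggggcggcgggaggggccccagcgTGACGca

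Of 32851 RefSeq windows of this length, 17.8% hold this half-site at least 1 time on either strand and 0.688% hold it 3 times or more. A match describes the letters only. The *Cebpb* window contained 81.6% G and C, against a median of 52.4% over all windows.

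*Cebpb* was at 187, 242 and 173 FPKM in day 10 replicates 1, 2 and 3 and at 248, 237 and 259 FPKM in day 14 replicates 1, 2 and 3. Day 10 replicate 2 was above day 14 replicate 2, so that the days overlapped. The means were 201 ± 36.2 FPKM (SD, n = 3) and 248 ± 10.7 FPKM (SD, n = 3), with 0.32 as the log2 fold change (95% interval −0.09 to 0.72, adjusted p = 0.602 from limma). Within day 14 the samples lay closer together than within day 10.

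*Cebpd*, on chromosome 16 from 15887286 to 15891031 on the plus strand, was at 49.6, 44.5 and 50.5 FPKM on day 10, against 64.9, 67.3 and 78.5 FPKM on day 14. The 3 samples of day 14 were all above the 3 samples of day 10, and the gap between the days was wider than the spread within day 10. The day 10 mean was 48.2 ± 3.23 FPKM (SD, n = 3), and the day 14 mean was 70.2 ± 7.25 FPKM (SD, n = 3). The log2 fold change was 0.54 (SE 0.14, adjusted p = 0.319 from limma), a fold of 1.45, and the two-sided exact permutation test gave p = 0.1, below which 3 samples against 3 cannot go. When single samples were left out, the difference for *Cebpd* stayed between 0.46 and 0.59. *Cebpd* thus had the smallest adjusted p of the 7 members, and it did not pass the test over all genes.

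Within each sample, *Cebpb* was 3.30 to 5.43 times as high as *Cebpd*. This ratio does not depend on the scaling of a sample. It was 4.22 ± 1.07 (SD, n = 3) for day 10 samples and 3.55 ± 0.266 (SD, n = 3) for those of day 14 (two-sided exact permutation test, p = 0.5), and the days overlapped.

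Of the late regulators, *Cebpa* lies on chromosome 7 from 35119293 to 35121928 on the plus strand. It was at 1.43, 1.79 and 1.48 FPKM on day 10, against 3.42, 3.95 and 2.09 FPKM on day 14. The days were fully separated, with day 14 replicate 3 closest to day 10. The means were 1.57 ± 0.199 FPKM (SD, n = 3) and 3.15 ± 0.955 FPKM (SD, n = 3). The log2 fold change was 0.93 (95% interval 0.18 to 1.67, adjusted p = 0.405 from limma), and the exact permutation test, two-sided, gave p = 0.1. These values rested on an estimated 17 to 27 reads per sample on day 10 and 35 to 56 reads on day 14. The exact Poisson interval of day 14 replicate 3, 1.45 to 2.89 FPKM, overlapped those of all day 10 samples, while that of day 14 replicate 2, 2.97 to 5.11 FPKM, overlapped none of them. Intervals of this kind cover counting error only. *Cebpb* was 117 to 135 times as high as *Cebpa* in the day 10 samples and 72.7, 60.1 and 123 times as high in day 14 replicates 1, 2 and 3, so that the ratio of replicate 3 lay among those of day 10.

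*Pparg* lies on chromosome 6 from 115360951 to 115490399 on the plus strand, with 7 annotated transcripts. RefSeq gives 3 start windows for it, and the most downstream (GRCm38.p6, plus strand, chr6:115421816-115422065) is shown because it held the C/EBP motif and the other windows found for members did not. Capitals mark TTGCNNAA or its reverse complement TTNNGCAA, which occurs 2 times without overlap.

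Pparg, most downstream start: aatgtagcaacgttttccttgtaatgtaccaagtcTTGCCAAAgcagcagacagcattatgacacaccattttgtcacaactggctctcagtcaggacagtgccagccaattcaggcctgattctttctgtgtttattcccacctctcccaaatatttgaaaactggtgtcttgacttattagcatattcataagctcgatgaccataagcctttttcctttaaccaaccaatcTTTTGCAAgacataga

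Of all windows, 9.56% hold this motif on either strand. The values per gene do not say from which of the 3 starts the reads came.

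*Pparg* was at 1.83, 1.65 and 0.822 FPKM on day 10, against 1.54, 3.58 and 1.03 FPKM on day 14. The highest sample, day 14 replicate 2, was the one with the highest chondrocyte marker sum, and the other samples of day 14 lay within the range of day 10. The means were 1.43 ± 0.538 FPKM (SD, n = 3) and 2.05 ± 1.35 FPKM (SD, n = 3), with 0.38 as the log2 fold change (95% interval −0.80 to 1.55, adjusted p = 0.872 from limma). Without day 14 replicate 2 it was −0.10 (adjusted p = 0.972 from limma). The estimated reads were 40 in day 14 replicate 2 and 12 to 17 in the other samples. The Poisson interval of replicate 2, 2.54 to 4.84 FPKM, overlapped those of day 10 replicates 1 and 2 and of day 14 replicate 1. A part of the chondrocyte markers in this value was not tested.

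*Cebpa* and *Pparg* were close in level. The ratio of *Cebpa* to *Pparg* was 0.780, 1.09 and 1.80 in day 10 replicates 1, 2 and 3 and 2.22, 1.10 and 2.03 in day 14 replicates 1, 2 and 3 (two-sided exact permutation test, p = 0.2).

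Of the genes for fatty acid handling, *Fabp4* lies on chromosome 3 from 10204088 to 10208576 on the minus strand. It was at 8.48, 13.8 and 16.9 FPKM on day 10, against 23.2, 15.2 and 30.7 FPKM on day 14. Day 14 replicates 1 and 3 were above all samples of day 10, whereas replicate 2 lay among them. The means were 13.1 ± 4.26 FPKM (SD, n = 3) and 23.0 ± 7.77 FPKM (SD, n = 3). The log2 fold change was 0.81 (95% interval 0.08 to 1.54, adjusted p = 0.452 from limma), and the two-sided exact permutation test gave p = 0.2. Without day 14 replicate 2 the log2 fold change was 1.08 (adjusted p = 0.173 from limma). When single samples were left out it stayed between 0.53 and 1.08. *Fabp4* was 4.24 to 29.8 times as high as *Pparg*, and the lowest and the highest ratio were both in day 14 samples, replicates 2 and 3.

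*Plin2*, on chromosome 4 from 86648386 to 86670060 on the minus strand, and *Cd36*, on chromosome 5 from 17781690 to 17888801 on the minus strand, are genes that PPARs are known to switch on. The RefSeq windows of both hold a copy of the nuclear receptor half-site AGGTCA, here as its reverse complement TGACCT, at 218 and 228 bases before the start. The *Cd36* window lies before a start inside the gene as GENCODE annotates it, downstream of its most distal start. Both windows are shown with these letters in capitals (GRCm38.p6, both minus strand, chr4:86670060-86670309 and chr5:17835897-17836146).

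Plin2: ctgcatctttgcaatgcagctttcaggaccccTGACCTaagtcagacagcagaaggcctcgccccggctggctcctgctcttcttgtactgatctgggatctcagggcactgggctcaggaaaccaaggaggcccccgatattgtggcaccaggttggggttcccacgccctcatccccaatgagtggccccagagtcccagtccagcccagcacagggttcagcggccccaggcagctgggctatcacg
Cd36: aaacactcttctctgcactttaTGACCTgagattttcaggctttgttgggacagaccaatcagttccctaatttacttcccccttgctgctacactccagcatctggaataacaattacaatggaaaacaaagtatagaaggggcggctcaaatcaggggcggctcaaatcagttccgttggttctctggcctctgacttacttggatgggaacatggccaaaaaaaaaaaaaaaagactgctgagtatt

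This half-site is common, and 14.0% of all windows hold it on either strand. It was also present in the other 2 start windows of *Pparg*. RefSeq windows were found for 6 of the 8 members, and those of *Fabp4* and *Cebpd* were not among them.

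*Plin2* was at 22.4, 30.0 and 21.8 FPKM on day 10, against 35.3, 27.3 and 39.1 FPKM on day 14. As for *Cebpb*, day 10 replicate 2 was above day 14 replicate 2, and the other samples of the days were separated. Its means were 24.7 ± 4.57 FPKM (SD, n = 3) and 33.9 ± 6.02 FPKM (SD, n = 3), and the log2 fold change was 0.45 (95% interval 0.01 to 0.90, adjusted p = 0.495 from limma). Without day 14 replicate 2 it was 0.60 (adjusted p = 0.234 from limma).

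*Cd36* was at 0.939, 0.974 and 0.910 FPKM on day 10, the smallest spread for its mean of any member on that day. The exact Poisson intervals of these values together ran from 0.538 to 1.59 FPKM, so that the spread was smaller than the counting error. On day 14 *Cd36* was at 2.16 FPKM in replicate 1, 0.0528 FPKM in replicate 2 and 2.57 FPKM in replicate 3. The samples of day 14 thus lay on both sides of day 10. The value of replicate 2 corresponds to an estimated 1 read, with an exact Poisson interval of 0.00135 to 0.296 FPKM, against 31 and 57 reads in replicates 1 and 3 and 15 to 22 reads on day 10. The interval of replicate 2 did not reach that of any other sample, whose lowest bound was 0.538 FPKM. The log2 fold change was −0.10 (SE 1.00, adjusted p = 0.991 from limma) with all samples. Without day 14 replicate 2 it was 1.24 (adjusted p = 0.207 from limma), and its sign turned to positive also with a pseudocount of 1 (0.23).

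*Adipoq*, on chromosome 16 from 23146536 to 23158028 on the plus strand, was listed at 0.199, 0.177 and 0 FPKM on day 10, against 0.213, 0 and 0 FPKM on day 14. Each value above 0 corresponds to an estimated 1 read, so that 3 reads were seen in all 6 samples. By the one-sided rule of 3, a count of 0 allows up to 3 reads, which is 0.364 to 0.475 FPKM in the 3 samples without a read. At this depth no difference between the days was detectable.

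The other markers of mature adipocytes fell into unequal parts. Of 16 such genes, *Car3* (carbonic anhydrase 3), *Cdo1* (cysteine dioxygenase) and *Rbp4* (retinol-binding protein 4) made up 96.0% to 99.8% of the summed level in each sample. The 13 others, which include *Lep*, *Retn*, *Slc2a4* and *Ucp1*, summed to 0.476 to 4.99 FPKM per sample, and the highest single value among them was 1.05 FPKM. *Cfd*, the adipsin gene, was listed at 0 in all samples. Which cells the reads of *Car3*, *Cdo1* and *Rbp4* came from was not tested. *Cdo1* was at 217, 97.4 and 62.4 FPKM on day 10, against 33.6, 66.4 and 9.42 FPKM on day 14 (log2 fold change −1.98, with an adjusted p of 0.400 from limma), and the days overlapped by day 14 replicate 2 and day 10 replicate 3. Without day 14 replicate 2, *Cdo1* and *Rbp4* were lower in all samples of day 14, with log2 fold changes of −2.62 and −1.23 (adjusted p = 0.128 and 0.138 from limma). With day 14 replicates 1 and 3 left out instead, the values of *Cdo1* and *Rbp4* were −0.72 and 0.27. *Car3* went from 134 ± 69.9 to 58.6 ± 45.1 FPKM (SD, n = 3 each; log2 fold change −1.53 and adjusted p = 0.587 from limma). *Rbp4* went from 51.0 ± 21.2 to 33.2 ± 21.8 FPKM (SD, n = 3 each; adjusted p = 0.632 from limma). Of the 12 genes of this group that could be tested, none had an adjusted p under 0.05 from limma, 1 had an unadjusted p under 0.05 with a lower level on day 14 and none with a higher one, against 4.4% and 5.6% of all genes tested. The median log2 fold change was −0.67, beside −0.04 over all genes tested. Apart from *Car3*, *Cdo1* and *Rbp4*, the tested genes of this group had means of only 0.130 to 0.315 FPKM over all samples. The median therefore rests mostly on genes of very low level.

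Further adipogenic transcription factors and cofactors showed no call. Of 33 tested, none had an adjusted p under 0.05 from limma, 2 had an unadjusted p under 0.05 with a higher level on day 14 and none with a lower one, against 5.6% and 4.4% of all genes tested, and the median log2 fold change was 0.04. The highest in level were *Klf2*, an inhibitor of *Pparg* transcription in preadipocytes (124 ± 31.7 FPKM on day 10 and 86.0 ± 36.9 FPKM on day 14, SD, n = 3 each), *Ddit3*, the stress-induced C/EBP family member CHOP (52.7 ± 12.1 and 51.0 ± 18.1 FPKM), and *Klf4*, which takes part in the early induction of *Cebpb* (43.7 ± 2.03 and 49.3 ± 7.44 FPKM). Their adjusted p from limma was 0.576, 0.961 and 0.801.

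Of the other lipid droplet and lipolysis genes, 15 of 20 were tested and none had an adjusted p under 0.05 from limma. An unadjusted p under 0.05 was found for 1 with a higher and 1 with a lower level on day 14, against 5.6% and 4.4% of all genes tested, and the median log2 fold change was 0.12. *Hilpda*, an inhibitor of triglyceride lipolysis induced by hypoxia, was the highest of them, at 105 ± 29.0 FPKM on day 10 and 123 ± 30.2 FPKM on day 14 (SD, n = 3 each; adjusted p = 0.826 from limma). *Plin3*, which coats lipid droplets in many cell types like *Plin2*, was at 28.2 ± 1.72 and 28.0 ± 3.13 FPKM (SD, n = 3 each), a log2 fold change of −0.01 (adjusted p = 0.994 from limma). *Bscl2*, the seipin gene, was at 31.2 ± 6.62 and 22.0 ± 5.19 FPKM (SD, n = 3 each; log2 fold change −0.50 and adjusted p = 0.498 from limma).

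Of the genes of fatty acid uptake, binding and synthesis, all 17 were tested. None had an adjusted p under 0.05 from limma, while 3 had an unadjusted p under 0.05 with a higher and 3 with a lower level on day 14, against 5.6% and 4.4% of all genes tested, and the median log2 fold change was 0.06. *Lpl*, the lipoprotein lipase that frees fatty acids from circulating triglycerides, was at 7.65, 8.32 and 13.3 FPKM on day 10, against 52.0, 29.6 and 29.8 FPKM on day 14. Its days were fully separated, with a log2 fold change of 1.91 (SE 0.29, adjusted p = 0.165 from limma). No other gene of these lists had a smaller adjusted p. *Angptl4*, an inhibitor of lipoprotein lipase and a PPAR target, was at 107, 142 and 96.5 FPKM on day 10, against 165, 178 and 414 FPKM on day 14 (log2 fold change 1.02, adjusted p = 0.395 from limma), again without overlap. *Fabp3*, the heart type of fatty acid-binding protein, was at 17.9, 16.8 and 5.05 FPKM on day 10 and 2.53, 4.68 and 1.96 FPKM on day 14 (log2 fold change −1.97, with an adjusted p of 0.310 from limma). The lipogenic genes *Scd2* (54.2 ± 11.2 and 37.9 ± 4.66 FPKM, SD, n = 3 each) and *Acly* (31.7 ± 4.01 and 43.6 ± 13.5 FPKM, SD, n = 3 each) were the highest in level after *Angptl4*, with an adjusted p of 0.443 and 0.610 from limma.

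**Figure D3:**
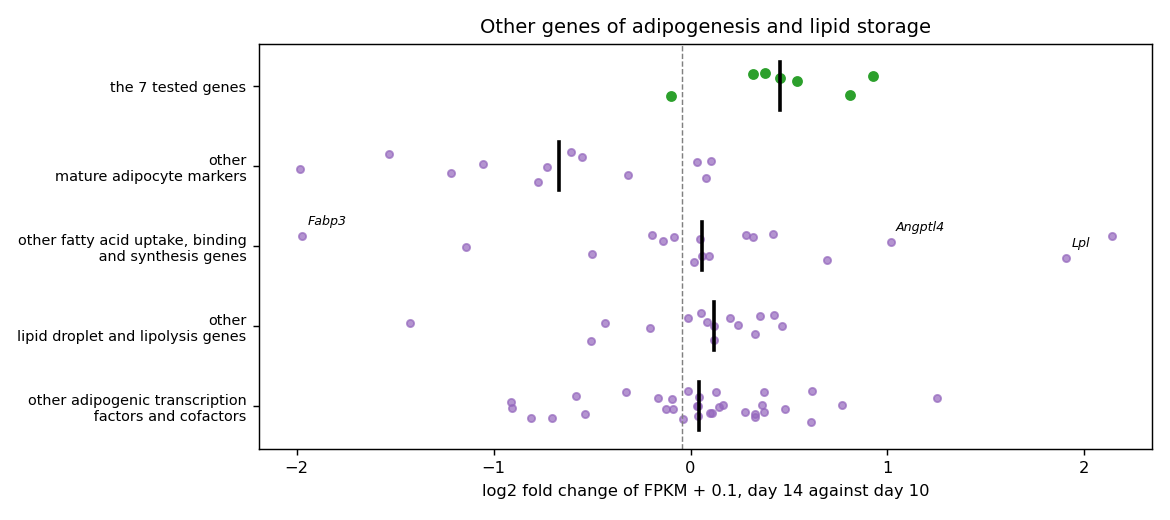
Log2 fold change of FPKM + 0.1, day 14 over day 10 (horizontal axis), for each tested gene of 4 lists of adipogenesis and lipid storage (purple) and for the 7 tested members (green). Black ticks are medians, and the dashed line is the median over all genes tested (−0.04). The mature adipocyte markers, most of which are at very low levels, have the lowest median (−0.67). *Lpl*, *Angptl4* and *Fabp3* are labelled among the fatty acid genes because they differed by over 2-fold with fully separated days. The highest value of that list, 2.14, belongs to a gene without a label.

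Since *Cd36* and *Fabp4* are also genes of macrophages and endothelium, their values are set beside markers of these cells. The 12 myeloid markers summed to 40.5, 175 and 136 FPKM in day 10 replicates 1, 2 and 3 and to 294, 20.4 and 680 FPKM in day 14 replicates 1, 2 and 3, and 8 of the 12 were above 0 in all samples. *Lyz2*, the most abundant of them, was at 160, 6.35 and 454 FPKM on day 14. The 4 others, *Adgre1*, *Fcer1g*, *C1qa* and *C1qb*, were listed at 0 in day 14 replicate 2 and in no other sample. Within day 14, *Cd36*, *Fabp4*, *Plin2*, *Cebpb* and the myeloid sum were lowest in replicate 2 and highest in replicate 3. *Cebpa* and *Pparg* were instead highest in replicate 2, and *Cebpd* was lowest in replicate 1. On day 10 the myeloid sum was lowest in replicate 1 and highest in replicate 2. *Fabp4* was also lowest in replicate 1 there but highest in replicate 3, while *Cebpb*, *Plin2* and *Cd36* were highest in replicate 2 and lowest in replicate 3. The 12 endothelial markers, of which 9 were above 0 in all samples, summed to 2.68, 5.52 and 5.03 FPKM on day 10 and to 12.5, 6.73 and 9.99 FPKM on day 14, without overlap of the days. *Pecam1* was at 0.268 to 0.657 FPKM on day 10 and 0.720 to 1.35 FPKM on day 14, and *Cdh5* at 0.0540 to 0.240 FPKM and 0.0892 to 0.752 FPKM. The part of either cell type in the values of *Cd36*, *Fabp4*, *Plin2* and *Cebpb* was not tested. In such bulk samples, fewer cells of a type and less RNA per cell cannot be told apart.

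**Figure D4:**
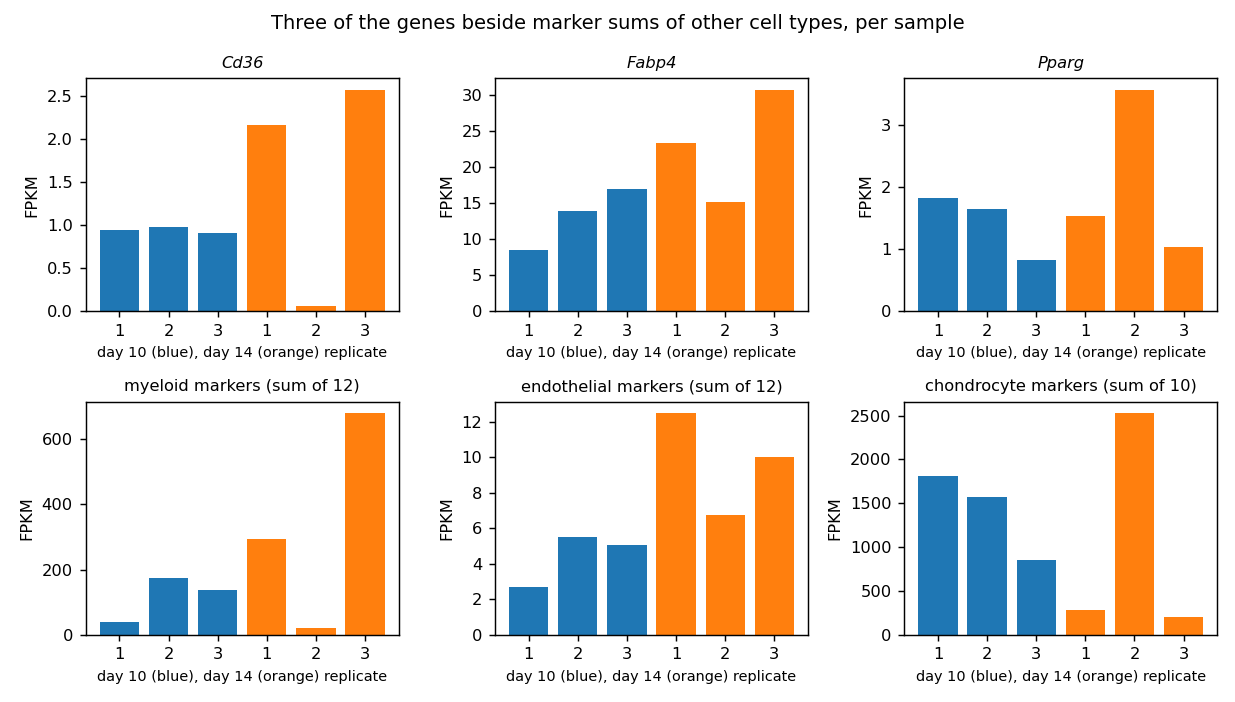
FPKM of *Cd36*, *Fabp4* and *Pparg* (upper row) and summed FPKM of 12 myeloid, 12 endothelial and 10 chondrocyte markers (lower row) in each sample (bars from 0; blue, day 10; orange, day 14; replicates 1 to 3 from left to right). In day 14 replicate 2, *Cd36* (0.0528 FPKM) and the myeloid sum (20.4 FPKM) have their lowest values and *Pparg* (3.58 FPKM) and the chondrocyte sum (2527 FPKM) their highest.

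For each tested member, the genes with the most similar profile were found by the root mean square (RMS) difference of log2(FPKM + 0.1) over the 6 samples, each gene centred on its own mean, among 11161 other genes with a mean of at least 1 FPKM. With 6 samples and so many genes, small differences are found for almost any profile, and the values describe the samples only. *Cebpb* was closest to *Klf13* (RMS difference 0.049), *Hbp1* (0.058) and *Hexa* (0.073). Of the other members it was closest to *Plin2* (0.138), and *Cebpb* in turn was 36th in the order for *Plin2*, after *Gpr146* (0.052), *Bahd1* (0.075) and *Ifnar2* (0.088) at the head. *Cebpd* was closest to *Zdhhc15* (0.051), *Oxr1* (0.051) and *D18Ertd653e* (0.063). *Fabp4* was closest to *Relb*, an NF-κB subunit, with an RMS difference of 0.046, which was at 8.60, 14.5 and 16.2 FPKM on day 10 and 22.5, 14.9 and 29.4 FPKM on day 14. *Man2a1* (0.080) and *Prrg3* (0.094) followed. *Cebpa* was closest to *Pde1b* (0.168), *Errfi1* (0.176) and *Dnaja4* (0.181), and *Pparg* to *Gm10033* (0.195), *Spock2* (0.199) and the Notch ligand gene *Dll1* (0.204). *Cd36* was closest to *Pld4* (0.290), *Vmn1r67* (0.345) and *Clec4a3*, a C-type lectin gene of myeloid cells (0.370). *Pld4* and *Vmn1r67* were listed at 0 in day 14 replicate 2, and *Clec4a3* was at 0.175 FPKM there.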

How the data were processed

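The 6 samples were grouped by the day in their titles, 3 of day 10 and 3 of day 14. Reads of 75 bases were aligned by the authors to mm10, using TopHat2 2.0.13, Bowtie2 2.2.3 and SAMtools 0.1.19, and the deposited values are FPKM per gene from Cufflinks 2.2.1. The gene annotation and the handling of multi-mapped reads are not given in the sources used here. In 1 file, 25 symbols had become dates and were restored by position, and *Adgre1* and *Hbb-bs* were matched by synonyms.

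Genes with a mean above 0.1 FPKM were compared with limma 3.58.1 in R 4.3.3 (eBayes with trend) on log2(FPKM + 0.1), two-sided, with Benjamini-Hochberg adjustment over all 19526 genes. The script was tested on simulated data. Single values were compared by two-sided exact permutation tests. Mapped reads were estimated from FPKM up to 0.3 of single-transcript genes with a fragment length of 230 bases, at which 75.4% to 79.9% of these values came within 0.1 of a whole number of reads. Reads per gene used the longest coding transcript and are approximate. FPKM hold no counts, so no count test was run.

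The members and lists were chosen with earlier results of these data known. The named genes are the members, the 3 highest genes of each pathway list and its fully separated genes over 2-fold, the leading cell type markers, and the 3 closest profiles of each member. *Runx2* and other single markers are given through their sums. Named after their values were seen were *Alpl*, *Ibsp*, *Sp7*, *Bglap2*, *Comp*, *Col9a1*, *Col9a2*, *Col11a1* and *Col11a2*. The same holds for *Adgre1*, *Fcer1g*, *C1qa*, *C1qb*, *Lep*, *Retn*, *Slc2a4*, *Ucp1* and *Cfd*. The alternatives were other pseudocounts, filters and scalings, no trend, a replicate block and each sample left out, with the leaving out of day 14 replicates 2 and 3 together, or of 1 and 3 together, added after seeing the data.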

Additional observations from a re-analysis of the deposited data

How the results depend on the processing

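No member and no gene of the 4 pathway lists had an adjusted p under 0.05 from limma under any of the 14 alternatives chosen at the start or the 2 added ones. The log2 fold changes of *Cebpa*, *Cebpb*, *Cebpd*, *Fabp4* and *Plin2* were positive in all of them. That of *Cd36* was 0.23 with a pseudocount of 1, 1.24 without day 14 replicate 2 and 1.12 without day 14 replicates 2 and 3, and that of *Pparg* was −0.10 without day 14 replicate 2. Leaving out single samples gave log2 fold changes of −0.10 to 0.75 for *Pparg* and −0.83 to 1.24 for *Cd36*. Under the same settings, the genes with an adjusted p under 0.05 among all tested numbered 3 to 76, the highest without day 14 replicate 2, against 3 with all samples. The members with separated days numbered 2 to 6, all of them upward, where 9.52% to 15.3% of all genes tested were separated upward. With day 14 replicates 2 and 3 left out, where the lone sample is assumed to vary like day 10, these counts were 19 and 7, and 40.6% of all genes tested were separated upward. With day 14 replicates 1 and 3 left out, they were 12 and 4, with 24.4% separated upward and 32.4% downward, and the log2 fold changes were 1.33 for *Pparg*, 0.27 for *Fabp4*, 0.16 for *Plin2* and −2.77 for *Cd36*. Deviations of same-numbered samples correlated across genes with r = 0.058, −0.00584 and 0.0887. Because these correlations were weak, the numbers were not taken as pairs, although 4 of 6 samples correlated best with their own number. A replicate block left 2 genes of all and 0 members with such an adjusted p. At this depth, *Adipoq*, *Cd36*, *Pparg* and *Cebpa* rest on few reads.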
